A study of Homo sapiens with 6 samples.

Results

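Pre-rRNA processing and RNA exosome genes were followed in LNCaP, a human prostate cancer cell line in long use that responds to androgen. The genes were chosen by symbol: UTP, NOP, RRP, EXOSC or NOL followed by a digit, and 14 further genes named singly, among them FBL, NCL and NPM1. The annotation used held 62 such symbols, and 56 of them, among 19775 genes in all, had a probe set paired with that gene alone. One group of cells received small interfering RNA (siRNA) to PCARNEQ and is written siPCARNEQ. The other, written siEGFP, received siRNA to EGFP, which encodes a fluorescent protein absent from human cells. Each group had 3 single-colour Affymetrix arrays of total RNA, numbered 1 to 3 in the labels, and all 6 arrays share the cell line and the exposure to an siRNA. The labels name no separate cultures, siRNA sequences, doses or times, so the p-values below cover the spread among these arrays alone, and that spread may be technical. The level of PCARNEQ itself was not analysed here.

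Ribosomes begin in the nucleolus, where RNA polymerase I makes a long precursor (pre-rRNA) that is folded, modified, cut and trimmed into the mature ribosomal RNAs. The small subunit (SSU) processome, built from UTP proteins and the U3 snoRNA particle, assembles on the precursor of the small subunit rRNA. Box C/D and box H/ACA particles (snoRNPs) methylate ribose and convert uridine to pseudouridine, other nucleolar factors assemble the large subunit, and the RNA exosome trims 3' ends and degrades the spacers. These genes are highly expressed in growing cells, and cancer cells often have enlarged nucleoli.

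Array 1 stood apart from arrays 2 and 3 in both groups. In siPCARNEQ, log2 differences across genes had an SD of 0.120 between arrays 2 and 3 but of 0.307 to 0.315 between array 1 and either of them. In siEGFP these SDs were 0.115 and 0.234 to 0.241. The ACTB control, read at both ends of the transcript as a sign of RNA quality, had a 3' minus 5' log2 difference of 1.84 on siPCARNEQ array 1, and of 0.63 to 0.78 elsewhere. Of 10 luminal prostate markers 8 were measured, all above the array median, and 6 rose, with a log2 summed intensity of 16.13 to 16.15 in siPCARNEQ and 15.48 to 15.61 in siEGFP. Of 3 basal markers measured, 1 lay above the array median, and KRT14, which lay below it, rose (summed level 8.02 to 8.15 against 7.86 to 7.98). ENO2 rose among 4 neuroendocrine markers, 3 of them above the median (9.75 to 10.25 against 9.40 to 9.62). COL1A1 rose and ACTA2 fell among 6 fibroblast and smooth muscle markers, 4 of them above the median (11.60 to 11.73 against 11.04 to 11.17). None of 5 immune and endothelial markers passed the limma test (0 at an unadjusted p below 0.05), and 2 lay above the median (9.22 to 9.31 against 9.23 to 9.40). The part of these marker changes in the results below was not tested. In bulk RNA, fewer cells of a type and less RNA per cell cannot be told apart.

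Most pre-rRNA processing and exosome genes were lower in siPCARNEQ cells. Each gene is given by its brightest single-gene probe set (highest mean log2 intensity over the 6 arrays), a change is siPCARNEQ minus siEGFP on the log2 scale, and "fell" or "rose" means a limma p below 0.05 after Benjamini-Hochberg adjustment over all genes. Of the 56 genes 35 fell (62.5%), where 12.3% of all genes did, and 1 rose, where 15.2% of all genes did. The other 20 did not pass. Bright genes fell more often: 20.5% of genes whose mean level lay above the median over genes, a range that holds 53 of the 56, with all 35 falls. The median change was -0.44, or 1.36-fold lower, against -0.01 over all genes. Changes ranged from -1.06 to 1.03 and were below 0 in 50 genes. In 44 genes all siPCARNEQ arrays lay below all siEGFP arrays, which held for 21.7% of all genes, and in 2 they lay above, which held for 22.3%. The set was proposed with the fall of ribosome biogenesis genes in this same contrast known, so these counts describe it and are not independent support. The plot of changes by role shows every gene with its standard error.

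**Figure D1:**
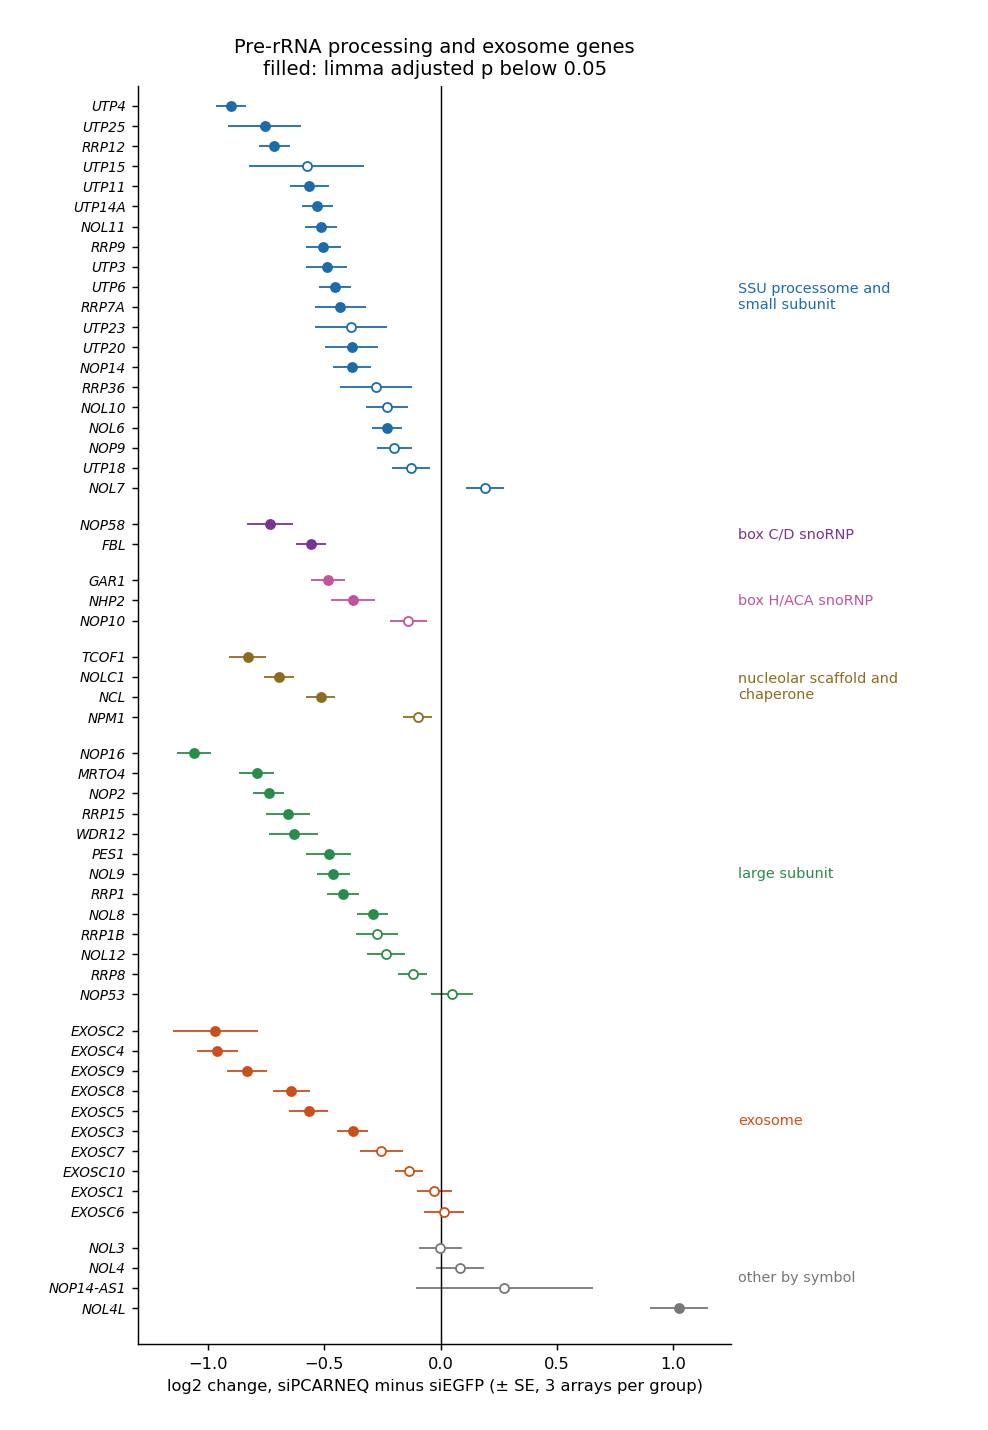
Log2 change (siPCARNEQ minus siEGFP, points) with its standard error (bars) for the 56 genes, ordered by role, from 3 arrays per group. Filled points passed limma's adjusted threshold of 0.05: 35 lie left of 0 and 1, NOL4L, lies right of it.

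The families named by symbol moved by unequal amounts, and the differences between families were not tested. The genes named singly fell in 9 of 10 cases, with a median change of -0.54. UTP genes fell in 7 of 10 (median -0.51), EXOSC genes in 6 of 10 (-0.47) and RRP genes in 5 of 8 (-0.43). NOP genes fell in 4 of 8 (-0.29). NOL genes fell in 4 of 10 (-0.23), the lowest share of these families, and include the gene that rose. Those 10 include NOL3, NOL4 and NOL4L, none of which fell, so the low share rests partly on them. A symbol family is not a functional class: NOL3, NOL4, NOL4L and NOP14-AS1 match the rule by symbol alone, and without them 35 of 52 genes fell and none rose by limma (0 rose at an unadjusted p below 0.05), with a median of -0.47. Sizes were modest in fold terms, since 22 genes fell by over 0.5 and NOP16 was the 1 gene at least 2-fold lower. Of all 19775 genes, 1386 fell by over 0.5.

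The starts of the genes were looked at with the falls already known. RefSeq promoter windows on GRCh38.p14, 250 bases before to 50 after a start, were found for 47 of the 56 genes and not matched for EXOSC1, EXOSC4, NOL10, NOLC1, NOP58, RRP1B, RRP12, TCOF1 and UTP23. They were searched for the E-box CACGTG, which is its own reverse complement, so that 1 search covers both strands. As background, this is the sequence bound by MYC with MAX and by related helix-loop-helix factors. The motif was in the window of 17 of the 47 genes (36.2%). It was in 10.9% of all 15384 measured genes with a window, and in 13.5% of those above the median level. Of 87 other genes of these pathways with a window, listed further below, 25 had it (28.7%). Within 50 bases of the start on either side it was in 15 of the 47 genes (31.9%). That share was 4.43% over all genes, 5.82% over genes above the median level and 23.0% over the other pathway genes. Over the whole window, the motif was in 14 of the 30 genes of the set that fell (46.7%), where all genes that fell had 14.2%. Of the 16 genes of the set that did not pass, 3 had it (18.8%). These 16 include NOL3, NOL4 and NOP14-AS1, which match the rule by symbol alone and lack the motif. The differences between these shares were not tested. A match describes the letters only, and binding was not measured. Below are the 100 bases before the start, 5' to 3' on the gene's strand, with the motif in capitals. UTP4, UTP20 and NOL8, which fell, and NOP10, which did not pass, hold it there, while NOP16 and EXOSC9, which fell, and EXOSC6, which did not pass, do not.
UTP4: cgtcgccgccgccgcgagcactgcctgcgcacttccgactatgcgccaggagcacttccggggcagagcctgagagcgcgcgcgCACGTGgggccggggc
UTP20: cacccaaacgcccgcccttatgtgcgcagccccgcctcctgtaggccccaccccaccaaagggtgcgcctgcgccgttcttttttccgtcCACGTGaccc
NOL8: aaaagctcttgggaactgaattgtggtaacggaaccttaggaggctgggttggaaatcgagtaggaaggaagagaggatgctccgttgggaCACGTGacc
NOP10: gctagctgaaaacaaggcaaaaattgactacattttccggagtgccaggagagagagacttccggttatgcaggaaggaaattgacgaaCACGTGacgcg
NOP16: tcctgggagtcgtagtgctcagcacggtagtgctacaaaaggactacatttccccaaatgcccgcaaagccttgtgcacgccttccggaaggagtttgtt
EXOSC9: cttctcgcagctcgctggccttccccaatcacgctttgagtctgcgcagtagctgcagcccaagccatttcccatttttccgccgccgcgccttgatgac
EXOSC6: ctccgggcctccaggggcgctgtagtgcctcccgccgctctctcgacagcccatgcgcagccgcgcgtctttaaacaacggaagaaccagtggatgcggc
UTP4 is the stretch chr16:69132549-69132648 on the plus strand, with the motif from 16 to 11 bases before the start, and UTP20 is chr12:101280005-101280104, plus strand, with the motif from 10 to 5. NOL8 is chr9:92325351-92325450, minus strand, with the motif from 9 to 4, and NOP10 is chr15:34343137-34343236, minus strand, from 11 to 6, with a second match farther upstream in its window. The stretches without the motif are chr5:176388599-176388698 on the minus strand for NOP16, chr4:121801223-121801322 on the plus strand for EXOSC9 and chr16:70251941-70252040 on the minus strand for EXOSC6.

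SSU processome and other small subunit genes fell in 13 of 20 cases, with a median of -0.44. UTP4, a WD-repeat protein of the UTP-A subcomplex that joins the nascent pre-rRNA early, had the largest fall of the class. Its log2 intensity was 11.25, 11.28 and 11.34 on siPCARNEQ arrays 1 to 3 and 12.21, 12.19 and 12.17 on siEGFP arrays 1 to 3. The groups were far apart beside their spread, and UTP4 fell by 0.90 (SE 0.06, adjusted p = 0.000137). NOL11, which binds UTP4, lay at 11.50, 11.62 and 11.63 against 12.06, 12.11 and 12.12 and fell by 0.51 (adjusted p = 0.0016). UTP15, another UTP-A protein, had 8.17, 9.17 and 8.95 against 9.12, 9.37 and 9.52. Its groups overlapped, with siPCARNEQ array 1 the lowest, and the change of -0.58 did not pass (adjusted p = 0.136). Blocking on the replicate number gave adjusted p = 0.0265.

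The UTP-B protein UTP6 fell by 0.45, while UTP18, of the same subcomplex, had a change of -0.13 (adjusted p = 0.309). RRP12, a HEAT-repeat factor needed for small subunit maturation and export, had 8.52, 8.63 and 8.59 against 9.26, 9.30 and 9.33 and fell by 0.72 (SE 0.07, adjusted p = 0.000378). That fall rests on 1 probe set: the 4 others of RRP12 had changes of -0.75, 0.10, -0.01 and -0.29, none past the threshold over probe sets. UTP14A, which activates a helicase that releases U3, went from 10.78, 10.86 and 10.92 in siEGFP to 10.34, 10.33 and 10.30 and fell by 0.53 (adjusted p = 0.00127). UTP11, another processome protein, went from 11.59, 11.64 and 11.66 to 10.92, 11.17 and 11.11 and fell by 0.56 (adjusted p = 0.00254). No array of either gene crossed between groups.

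Among the other genes of this class UTP25 fell by 0.76, RRP9, the U3-specific protein, by 0.50, and UTP3 by 0.49. RRP7A and NOL6, which belong to the UTP-C part of the processome, fell by 0.43 and 0.23, and NOP14 and UTP20 by 0.38 each. NOL6 and UTP20 were near the threshold (adjusted p = 0.0366 and 0.0429) and kept the call only without siPCARNEQ array 1, of the 6 arrays left out in turn. RRP7A lost it without siEGFP array 2 or 3. UTP23, RRP36, NOL10 and NOP9 had changes of -0.39, -0.28, -0.23 and -0.20 and did not pass. Blocking on the replicate number, UTP23 and RRP36 passed (adjusted p = 0.0429 and 0.0161). NOL7 was the 1 gene of the class with higher values on every siPCARNEQ array (12.25, 12.40 and 12.31 against 12.00, 12.19 and 12.19). Its change of 0.19 did not pass (adjusted p = 0.138), although 1 of its 3 other probe sets rose by 0.46 (adjusted p = 0.00353 over probe sets).

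Both box C/D snoRNP proteins of the set with a value fell. FBL (fibrillarin), the methyltransferase of these particles, had 12.83, 12.91 and 12.93 in siPCARNEQ and 13.45, 13.44 and 13.46 in siEGFP, and fell by 0.56 (SE 0.06, adjusted p = 0.000826). NOP58, part of the same core, had 12.31, 12.00 and 11.99 against 12.81, 12.84 and 12.85 and fell by 0.73 (SE 0.10, adjusted p = 0.00159). Here array 1 showed the smaller difference, -0.50 against -0.85 for arrays 2 and 3. Their partner NOP56 had only probe sets shared with snoRNA genes in the annotation and has no value. SNU13, also of this core, lies outside the rule and is counted further below among the other small subunit factors. It had 11.48, 11.41 and 11.46 against 11.63, 11.56 and 11.63. The groups of SNU13 did not overlap, yet its change of -0.15 did not pass (adjusted p = 0.13).

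Of 3 box H/ACA snoRNP proteins measured, 2 fell. GAR1 lay at 10.59, 10.74 and 10.76 against 11.21, 11.19 and 11.14 and fell by 0.48 (adjusted p = 0.00278). NHP2 lay at 13.10, 13.37 and 13.40 against 13.65, 13.65 and 13.71 and fell by 0.38 (adjusted p = 0.0223). Its siPCARNEQ array 1 was the lowest, and NHP2 did not pass without siEGFP array 1, 2 or 3 (adjusted p = 0.054, 0.0715 and 0.0844). NOP10, the small protein whose E-box is printed above, had 13.42, 13.58 and 13.66 against 13.67, 13.69 and 13.72. The groups did not overlap, yet the change of -0.14 did not pass (adjusted p = 0.264). DKC1, the pseudouridine synthase itself, has no value because its probe sets are paired with small RNA genes too.

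Of the 4 abundant nucleolar scaffold and chaperone genes, 3 fell. TCOF1 (treacle), which links rRNA gene transcription to processing, had 8.07, 7.87 and 7.87 in siPCARNEQ and 8.75, 8.80 and 8.75 in siEGFP and fell by 0.83 (SE 0.08, adjusted p = 0.000414). NOLC1, a phosphoprotein that binds snoRNPs, lay at 12.54, 12.43 and 12.48 against 13.16, 13.17 and 13.21 and fell by 0.70 (adjusted p = 0.000387). NCL (nucleolin) lay at 13.11, 13.05 and 13.12 against 13.61, 13.60 and 13.61 and fell by 0.52 (adjusted p = 0.00103). In all of these the groups were well separated. NPM1 (nucleophosmin), a histone and ribosomal protein chaperone, had 14.62, 14.65 and 14.62 against 14.74, 14.76 and 14.68. Its change of -0.10 did not pass (adjusted p = 0.31), and its 2 other probe sets, at -0.21 and -0.14, did not either. The plot of snoRNP and scaffold genes by array shows the separation of each.

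**Figure D2:**
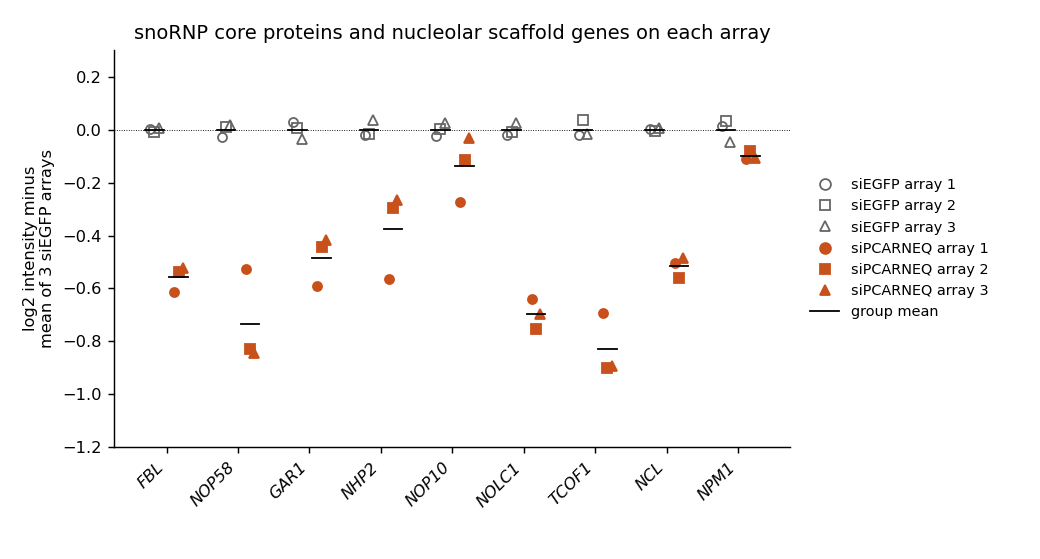
Log2 intensity on each array minus the mean of the 3 siEGFP arrays of that gene, for the snoRNP core proteins and nucleolar scaffold genes of the set (open symbols siEGFP, filled symbols siPCARNEQ, shape for the array number, line for the group mean). NOP58 and TCOF1 have the lowest means, at -0.73 and -0.83, and NPM1 the highest, at -0.10.

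Large subunit genes fell in 9 of 13 cases (median -0.46), and in 12 of 13 all siPCARNEQ arrays were below all siEGFP arrays. NOP16, a nucleolar protein of early large subunit particles, had 11.40, 11.50 and 11.54 against 12.47, 12.56 and 12.59. It fell by 1.06 (2.09-fold lower, SE 0.07, adjusted p = 0.000118). A second probe set of NOP16 fell by 1.31 (adjusted p = 0.000468 over probe sets), and the other 2, both below the array median, did not pass. MRTO4, which holds the place of a stalk protein on the early large subunit, lay at 9.98, 9.81 and 9.92 against 10.62, 10.75 and 10.72 and fell by 0.79 (adjusted p = 0.000412). NOP2, an rRNA cytosine methyltransferase, lay at 10.07, 9.97 and 9.95 against 10.77, 10.71 and 10.73 and fell by 0.74 (adjusted p = 0.00035). Neither of these groups overlapped.

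RRP15, an early large subunit factor, fell by 0.66, and NOL9, a polynucleotide kinase that acts in spacer processing, by 0.46. WDR12 and PES1, which with BOP1 form the PeBoW complex, fell by 0.63 and 0.48. BOP1 has no value, since its probe sets are paired with a miRNA gene too. WDR12 had 10.83, 11.13 and 11.15 against 11.78, 11.60 and 11.62, while another of its probe sets had 8.07, 8.02 and 7.99 against 7.71, 7.72 and 7.75 and rose by 0.30 (adjusted p = 0.0218 over probe sets). These probe sets of WDR12 moved in opposite directions, and over the mean of its probe sets it did not pass (-0.18, adjusted p = 0.141). RRP1 and NOL8 fell by 0.42 and 0.29, and NOL8 did not keep the call without siPCARNEQ array 2 or 3 or siEGFP array 2. RRP1B, NOL12 and RRP8 had changes of -0.27, -0.23 and -0.12 and did not pass, although RRP1B did with the replicate number as a block (adjusted p = 0.0449). NOP53 was measured near the array median only (7.04, 7.16 and 7.19 against 7.20, 6.94 and 7.10), with a change of 0.05.

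The 10 exosome genes split into 6 that fell and 4 that did not pass. The exosome is a ring of 6 proteins in 3 pairs, topped by a cap of 3, to which the nucleases attach. Of the ring pairs, EXOSC4 with EXOSC9 fell together. EXOSC4 had 10.86, 11.12 and 11.11 in siPCARNEQ and 11.95, 11.99 and 12.03 in siEGFP and fell by 0.96 (SE 0.09, adjusted p = 0.000363), as did both of its other probe sets (by 1.04 and 1.13). EXOSC9 had 10.15, 10.03 and 9.88 against 10.83, 10.90 and 10.83 and fell by 0.83 (SE 0.08, adjusted p = 0.000524). The siPCARNEQ arrays of both genes lay well below every siEGFP array.

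In a second ring pair, EXOSC5 with EXOSC8, both partners fell too, and in the third, EXOSC6 with EXOSC7, neither passed. The differences between pairs were not tested. EXOSC5 lay at 8.81, 9.0 and 9.05 against 9.50, 9.49 and 9.57 and fell by 0.57 (adjusted p = 0.00235). EXOSC8 lay at 11.33, 11.47 and 11.41 against 11.93, 12.08 and 12.12 and fell by 0.64 (adjusted p = 0.00119). The groups of these partners did not overlap. EXOSC6 lay at 11.96, 11.73 and 11.74 against 11.75, 11.85 and 11.78, with overlapping groups and a change of 0.01 (SE 0.09, adjusted p = 0.929). A dimmer probe set of EXOSC6 had a change of -0.83 that did not pass (adjusted p = 0.0541 over probe sets), and the mean over its 3 probe sets fell by 0.26 (adjusted p = 0.0337), so its direction depends on the probe set. Its partner EXOSC7 lay at 11.51, 11.72 and 11.84 against 11.96, 11.94 and 11.94. Its siPCARNEQ arrays were all below the siEGFP arrays, yet the change of -0.25 did not pass (adjusted p = 0.0848). A dimmer probe set of EXOSC7 had a change of -0.01 (adjusted p = 0.942 over probe sets).

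The cap proteins bind the RNA at the mouth of the ring, and 2 of the 3 fell. EXOSC2 had 9.59, 10.19 and 10.32 against 10.90, 11.05 and 11.06 and fell by 0.97 (SE 0.18, adjusted p = 0.00699), the fall with the widest error in the family. Its siPCARNEQ array 1 was far below the other 2, and the change was -0.80 from arrays 2 and 3 only. EXOSC3 lay at 10.80, 10.93 and 10.91 against 11.25, 11.25 and 11.26 and fell by 0.38 (adjusted p = 0.00534). All 6 of its probe sets were lower, and 2 fell. Without probe sets whose suffix marks possible matches to several transcripts, EXOSC3 did not pass (-0.31, adjusted p = 0.138). EXOSC1 lay at 10.93, 10.95 and 10.999 against 11.10, 10.92 and 10.94, overlapping, with a change of -0.03 (adjusted p = 0.842). EXOSC10, the nuclear nuclease, lay at 10.52, 10.54 and 10.50 against 10.64, 10.66 and 10.66, apart but with a change of -0.14 that did not pass (adjusted p = 0.15).

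**Figure D3:**
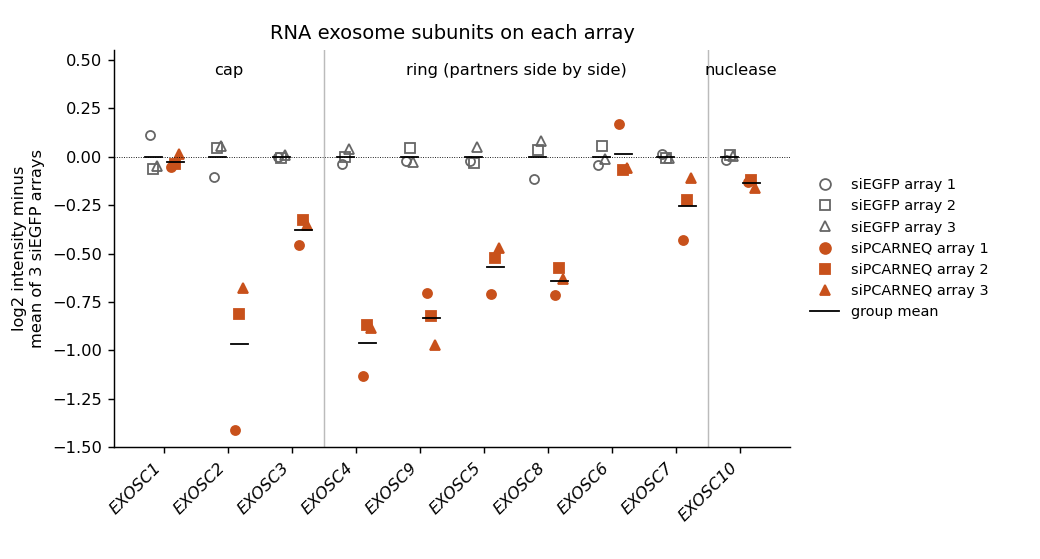
Log2 intensity on each array minus the mean of the 3 siEGFP arrays of that gene, for the cap, the ring (partners side by side) and the nuclease EXOSC10 (open symbols siEGFP, filled symbols siPCARNEQ, shape for the array number, line for the group mean). EXOSC2, EXOSC4 and EXOSC9 have the lowest siPCARNEQ means, at -0.97, -0.96 and -0.83, while EXOSC1 and EXOSC6 lie within the siEGFP spread or across it.

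The genes that match the rule by symbol alone did not follow the others. NOL4L, named for its likeness to NOL4, had 10.29, 10.00 and 10.11 in siPCARNEQ and 9.33, 9.07 and 8.92 in siEGFP. It rose by 1.03 (2.04-fold higher, SE 0.12, adjusted p = 0.00107), and its 5 other probe sets, all below the array median, did not pass. NOL3, an inhibitor of apoptosis, had a change of -0.00 (adjusted p = 0.995), although 1 dimmer probe set of it rose by 0.86 (adjusted p = 0.0248 over probe sets). NOL4, a neuronal gene at 4.37 to 4.71 on all arrays and the 1 gene of the 56 below the array median of 7.03, had a change of 0.08. NOP14-AS1, an antisense transcript, had 8.48 and 7.70 on the 2 arrays numbered 1 and 7.02 to 7.13 on the other 4, with a change of 0.27 (adjusted p = 0.655).

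Array 1 and arrays 2 and 3 gave like medians over the 56 genes. The median difference between the arrays numbered 1 was -0.50, and -0.42 from the means of arrays 2 and 3. In 24 genes the difference was higher (less negative) in array 1. From arrays 2 and 3 only, 42 genes fell, among them all 35, where 18.8% of all genes fell. The 7 added were UTP15, UTP23, RRP36, NOL10, NOP9, RRP1B and NOL12. When arrays 2 and 3 were averaged within each group and taken as a single replicate, 22 of the 35 fell and no other, where 5.26% of all genes did. With the replicate number as a block 39 fell, where 15.3% of all genes did.

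**Figure D4:**
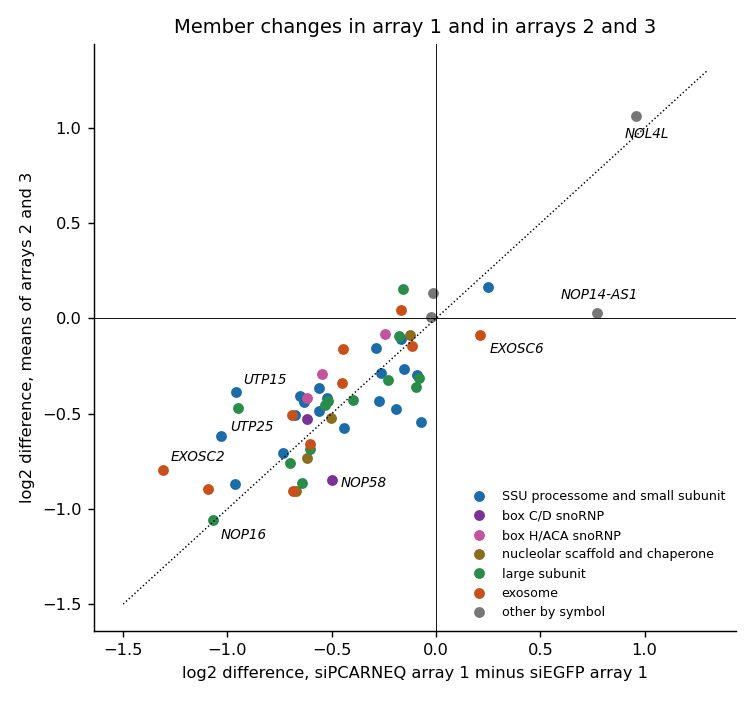
Log2 difference, siPCARNEQ minus siEGFP, between the arrays numbered 1 (x) and between the means of arrays 2 and 3 (y) for each of the 56 genes, coloured by role, with the line of equal values. Most genes lie below 0 on both axes; EXOSC2, UTP25 and UTP15 are lower in array 1, NOP58 is lower in arrays 2 and 3, and NOP14-AS1 is high in array 1 alone.

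Falls were seen in other probe sets of the same genes too. The 56 genes have 131 single-gene probe sets, of which 50 fell and 4 rose, where 9.86% of all single-gene probe sets fell. Of the 75 that are not the brightest of their gene, 17 fell and 3 rose, and 62 had a change below 0. The 47 of these above the array median hold 16 of those falls and all 3 rises, and the 28 at or below it hold 1 fall.

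Other genes of the same pathways, in lists drawn up from general knowledge, fell in most cases in 4 of 5 lists. Of 34 other small subunit factors 22 fell and none rose by limma (0 at an unadjusted p below 0.05; median -0.38), among them HEATR1, a UTP-A protein, by 1.04, the kinase RIOK1 by 0.95 and the scaffold PDCD11 by 0.75. Of 31 other large subunit factors 22 fell and 2 rose (median -0.40). MAK16 fell by 1.70, TMA16 fell by 1.82 and NLE1 fell by 0.84, while the ATPase NVL rose by 0.51 and the SUMO protease SENP3 by 0.37. SENP3 kept the call only without siPCARNEQ array 1, of the 6 arrays left out in turn. Of 9 proteins of the RNases MRP and P, which cut pre-rRNA and pre-tRNA, 6 fell (median -0.42), among them POP1 by 1.0, RPP40 by 0.80 and POP5 by 0.42, the last not without siEGFP array 3. Of 8 snoRNP assembly factors 6 fell (median -0.56), among them NUFIP1 by 1.10, SHQ1, the chaperone of the pseudouridine synthase, by 0.68 and the ATPase RUVBL1 by 0.56.

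Exosome nucleases and cofactors fell in 2 of 15 cases (13.3%), with a median of -0.04. Of all genes 12.3% fell, and of genes above the median level, where all 15 lie, 20.5%. The list also holds XRN2, which is not an exosome nuclease, with a change of -0.43 that did not pass (adjusted p = 0.228). DIS3L, the cytoplasmic nuclease, fell by 0.80, and ZCCHC7, the RNA-binding protein of the nuclear TRAMP complex, by 0.85. DIS3, the main nuclear nuclease, had a change of 0.17 (adjusted p = 0.11), MTREX, the helicase that feeds RNA to the nuclear exosome, of -0.21 (adjusted p = 0.106), and ZFC3H1, of the connection to nuclear polyadenylated RNA, of 0.23 (adjusted p = 0.0517). The core subunits fell in 6 of 10 cases, and the difference between core and cofactors was not tested. Over the 5 lists, 58 of 97 genes fell and 2 rose.

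**Figure D5:**
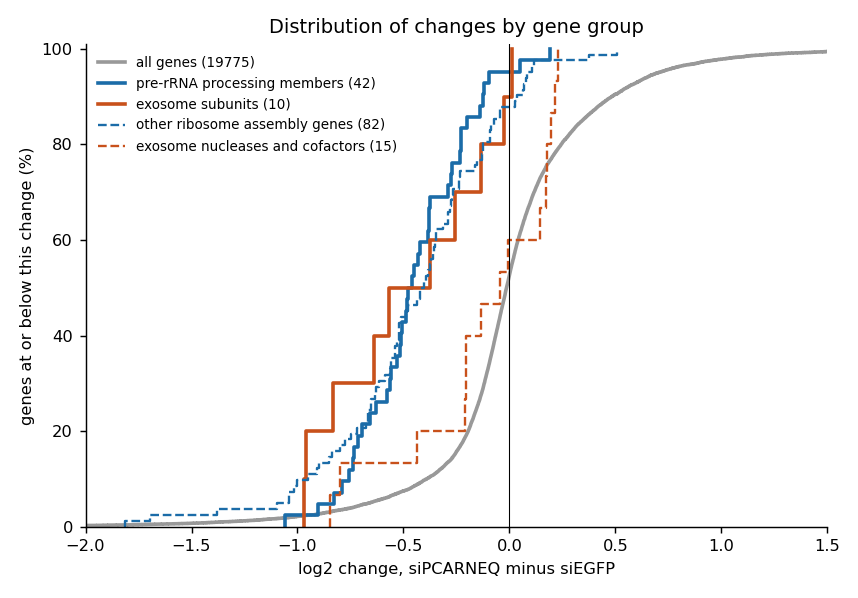
Share of genes (%, y) at or below each log2 change (siPCARNEQ minus siEGFP, x) for all 19775 genes, 42 pre-rRNA processing genes, 10 exosome subunits, 82 other ribosome assembly genes and 15 exosome nucleases and cofactors. Curves of the processing genes, exosome subunits and other assembly genes lie left of that of all genes over most of their range, while that of the nucleases and cofactors crosses near 0, with a median of -0.04.

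The genes of the precursor that these proteins act on were represented by RNA45SN5. It is 1 of many near-identical ribosomal RNA genes, so its signal cannot be assigned to 1 copy. RNA45SN5 also holds the mature ribosomal RNA sequences, and whether its signal comes from precursor or mature RNA was not determined. Its values were 7.10, 8.26 and 8.32 in siPCARNEQ and 12.16, 9.87 and 9.92 in siEGFP. The groups did not overlap, and siEGFP array 1 was far above and siPCARNEQ array 1 below the rest of its group. The levels of precursor and mature ribosomal RNA were not analysed separately here.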

How the data were processed

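Values were probe-set intensity on a linear scale as deposited, summarised by the authors with RMA (per the submitters' processing notes; its version is not given in the sources used here). Sorted by size, the arrays' log2 values were within 0.0049 of each other, so any difference in total signal between arrays is out of reach. Precision is limited by the number of arrays. Here log2 was taken with no pseudocount, and 41091 of 54675 probe sets had 1 gene each in the platform's annotation. Groups were compared with limma 3.58.1 in R 4.3.3 over 19775 genes, 2-sided, without covariates, and the fit was tested on simulated data. There 86 of 100 log2 changes of 1.0 and 32 of 100 of 0.5 were recovered, with 5 false calls. Fewer genes were changed there than passed in the real data. Genes that did not pass may therefore have changed by such amounts. Members and lists were chosen with earlier results of these data known. The text names, in each role, up to 5 genes with the smallest p, those that rose and the one with the largest p, and in each pathway list up to 3 with the smallest p. The rest account for every member, and DIS3, MTREX, SNU13, XRN2 and RNA45SN5 were added with their values known. Replicate numbers 1 to 3 occur in both groups. Deviations of same-numbered arrays from their group mean correlated at 0.53, 0.36 and 0.38. On this basis the replicate block took the numbers to pair arrays, while no label states a shared batch. Array 1 stood apart in both groups, which alone makes such deviations correlate. The correlations therefore cannot show that arrays 2 and 3 pair by number, and differently numbered arrays were not compared. GNL3 was not analysed here, nor were BOP1, DKC1, NOP56, PPAN, RRP7BP and UTP14C, whose probe sets are each paired with several genes. Alternatives were the replicate block, averaging arrays 2 and 3, leaving out each array, other probe-set choices and scalings, and arrays 2 and 3 only, the last chosen after seeing the data.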

Additional observations from a re-analysis of the deposited data

How the results depend on the processing

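With arrays 2 and 3 averaged, 22 of the 56 genes fell, as did 1040 of all genes, with 1196 rises, against 2438 and 3007. So did 32 of the other pathway genes, 3 UTP, 3 RRP and 1 NOL gene. Without the probe sets whose suffix marks possible matches to several transcripts (46 genes left), 23 fell and 2 rose (NOL4L and NOL7), with 3 EXOSC, 3 RRP and 2 NOL falls and medians of -0.19 for EXOSC, -0.12 for NOL, -0.20 for NOP and -0.28 for RRP. There RRP12, left with a dim probe set, had a change of 0.10. With the mean of all probe sets of a gene 0 members rose, medians were -0.10 for NOL, -0.32 for NOP, -0.35 for RRP, -0.44 for UTP and -0.43 for the genes named singly, and EXOSC6 was at -0.26. The NOP median was -0.56 over genes above the median level, where fewer genes were tested, and -0.32 with cyclic loess. Arrays 2 and 3 only gave 3715 falls and 4514 rises over all genes. Leaving out 1 array at a time gave 30 to 39 falls among the 56 genes and 38 to 63 among the other pathway genes, the lowest without siEGFP array 3. It gave 2 to 6 NOL falls, with 2 without siPCARNEQ array 2 or 3 or siEGFP array 2, and a NOP median of -0.32 to -0.28. The replicate block, which pairs same-numbered arrays, gave 39 falls and lost none of the 35. It changed no call among the 49 genes named by rule. The cause of these moves was not tested. Adding 32 before log2, subtracting array medians, the variance trend, cyclic loess and the mean of all probe sets gave 33 to 37 falls. Levels near the array median may be background, which limits what can be seen of dim genes.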
